A study of Sus scrofa with 92 samples.

Results

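Gene expression in the liver of fasted (FS) pigs was compared between a biopsy taken before haemorrhage (Baseline, B) and a biopsy taken 20 hours into full resuscitation from haemorrhagic shock with polytrauma (FR20). Members were the libraries labelled fasted at B and at FR20 of animals whose Baseline library holds albumin messenger RNA, paired within the animal. This gave 30 libraries of 15 animals, out of 92 libraries of 23 animals in all, and 3 of the 18 fasted animals were left out. The study sampled each pig at 4 timepoints (B, FR2, FR8 and FR20, the last 3 at 2, 8 and 20 hours), and 5 further pigs had been prefed with carbohydrate (CPF). All pigs were male Yorkshire-Landrace crosses that were fasted overnight and had their spleens removed. The CPF pigs alone drank a corn syrup before anaesthesia. Every pig received a blunt chest injury, a crush injury of the liver and a controlled bleed, followed by limited and then full resuscitation. Of the 15 fasted animals, 12 lived and 3 died. No group went through anaesthesia and surgery without haemorrhage, so injury, resuscitation, anaesthesia, the longer fast and the clock time of the biopsy cannot be told apart in FR20 against B.

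The liver makes most plasma proteins, disposes of ammonia and drugs, makes bile, and stores and releases glucose and lipid. In the acute phase response, cytokines that reach hepatocytes raise the transcription of some plasma proteins and lower that of others, the negative acute phase proteins, of which albumin is the best known. Fasting and stress hormones act on the same cells: glucocorticoids switch on a set of direct target genes, and insulin and sterol supply set the genes that make fatty acids and cholesterol.

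The 15 animals were selected on their albumin (ALB) level at Baseline, so ALB is described here without a test. The lowest kept Baseline library held 59451 CPM of ALB (counts scaled to a fixed library total), and the libraries just outside held 52.7, 0.312 and 0.197. In the 15 kept animals ALB took a median of 12.1% of all counts at Baseline (5.95% to 14.4%) and 3.06% at FR20 (1.32% to 5.87%). The remaining CPM values are scaled by the TMM factors of the 79 libraries fitted together, and on that scale ALB ran from 54242 over a median of 143033 to 172711 CPM at B and from 9621 over 27524 to 48777 CPM at FR20. Every FR20 library was lower than every Baseline library.

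Library totals ran from 6877117 to 14642156 counts at B (median 12290205) and from 8540967 to 16613261 at FR20 (median 12910353). Some libraries stood apart from the others of their timepoint. The Baseline library of FS animal 7 lay outside the range of the other 14 in 26.5% of the genes tested, and the FR20 library of FS animal 6 in 35.4%, against 6.03% to 21.2% and 7.22% to 20.8% for the other libraries of B and FR20. In animal 7, 59.5% of the genes called at FR20 moved in the called direction, in animal 3 70.8%, and in the other 13 animals between 83.4% and 95.5%. In the Baseline library of animal 7 the endoplasmic reticulum chaperone gene HSPA5 stood at 7574 CPM and in that of animal 3 at 4380 CPM, against 308 to 892 CPM in the other 13, so these Baseline libraries go against their label for this gene. HSPA5 was not the only such gene. UGDH, CYP2B6 and NQO1 stood at 1070, 630 and 91.7 CPM in animal 3 at Baseline and at 1345, 656 and 123 CPM in animal 7. The other 13 had 99.1 to 401, 50.3 to 403 and 23.2 to 64.9 CPM. The Baseline library of animal 7 was also the lowest of the 15 for LPIN1 (4.04 CPM), PER2 (1.43 CPM) and DBP (0.391 CPM). At FR2 its ALB stood at 30115 CPM against 80850 to 117437 CPM in the other 14. At FR8 its ALB stood at 123457 CPM against 32925 to 61297 CPM, and its HSPA5 at 649 CPM against 1088 to 8900 CPM. All comparisons keep the labels as given and include this animal. Results are for all 15 animals, and the counts of a list are also given without animals 3 and 7 where they changed. The 12 hepatocyte markers other than ALB found in the table were present at both timepoints: their summed level, on the scale of each library total, ran from 59700 to 98910 CPM at B and from 39960 to 64610 CPM at FR20, and none was at 0.

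Of 13531 genes tested, 1508 were differentially expressed genes (DEGs) at FR20 against B, that is 11.1%, with 757 higher (5.59%) and 751 lower (5.55%). A DEG here has a Benjamini-Hochberg adjusted p under 0.05 and at least a 2-fold difference in edgeR's quasi-likelihood test with a term for each animal. By the adjusted p alone 39.9% passed, against 47.9% at FR8 and 45.1% at FR2. The median log2 fold change of all genes was 0.05. Among the higher DEGs 535 (70.7%) moved upwards in at least 13 of the 15 animals, and 120 (15.9%) in all 15. Among the lower DEGs 579 (77.1%) moved downwards in at least 13 animals and 170 (22.6%) in all 15. Groups that did not overlap were few: every FR20 library stood above every Baseline library for 6 genes (0.0443%) and below for 15 (0.111%). Without animals 3 and 7 these counts were 134 (0.99%) and 239 (1.77%), and there were 1040 higher and 907 lower DEGs. In 22 of the 757 higher DEGs no Baseline library held more than 3 counts, and in 19 of the 751 lower DEGs no FR20 library did. In these bulk samples fewer cells of a type and less of a messenger RNA per cell cannot be told apart.

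**Figure D1:**
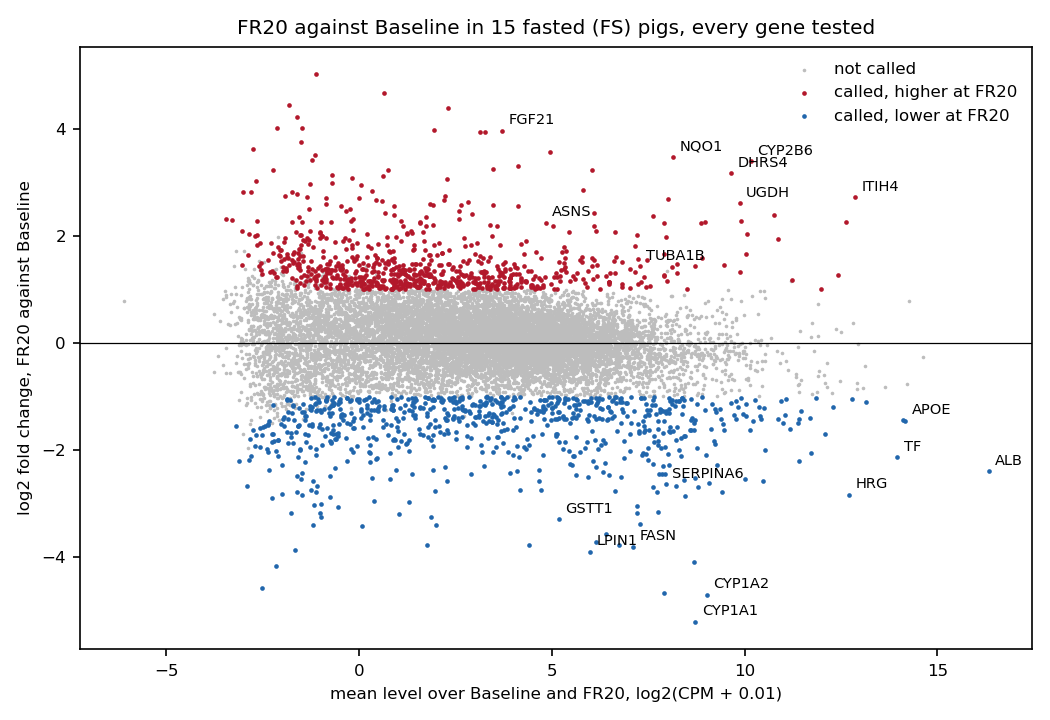
Log2 fold change at FR20 against Baseline (vertical) against the mean level over both timepoints in log2(CPM + 0.01) (horizontal) for the 13531 genes tested in 15 FS animals; red and blue points are the 757 higher and 751 lower DEGs. The most abundant genes that changed, ALB, TF and APOE, lie below 0, and ITIH4, CYP2B6, DHRS4, NQO1 and UGDH lie above it at 2.72, 3.39, 3.17, 3.48 and 2.61.

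The lower DEGs with the smallest p were genes of secreted plasma proteins and of small-molecule handling. TF, which encodes the iron carrier transferrin, stood at 9437, 27700 and 32481 CPM (lowest, median and highest of 15) at B and at 2972, 4846 and 12367 CPM at FR20. It fell in 15 of 15 animals by 2.13 on the log2 scale (SE 0.19, adjusted p = 4.73e-13), and 13 of the FR20 libraries lay below the lowest Baseline library. APOE, a lipoprotein ligand, went from a median of 27332 to 9690 CPM and fell by 1.45 (SE 0.13, adjusted p = 2.95e-13). APOF, the gene of a lipid transfer inhibitor, had 320, 902 and 1453 CPM at B and 51.0, 159 and 273 CPM at FR20. Its groups did not overlap, and it fell by 2.62 (SE 0.23, adjusted p = 4.73e-13). The symbol APOF belongs to the identifier ENSSSCG00000000398. A neighbouring identifier that the study's tables also name APOF, ENSSSCG00000000397, had a log2 fold change of -0.83.

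Genes of the blood clotting balance were among the same leading group. PROC encodes protein C, a clotting inhibitor, and had 994, 2060 and 2575 CPM at B and 463, 787 and 1059 CPM at FR20 (log2 fold change -1.37, SE 0.13, adjusted p = 2.06e-12). CPB2, which encodes an inhibitor of fibrinolysis, fell by 1.43 (SE 0.13). HGFAC, the gene of the serum protease that activates hepatocyte growth factor, fell by 1.09 (SE 0.09) and ITIH3, a hyaluronan-binding plasma protein gene, by 1.36 (SE 0.11), each in 15 of 15 animals with an adjusted p of 1.55e-13. Of HGFAC, 4 FR20 libraries lay below its lowest Baseline library, which was that of animal 7 at 421 CPM.

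The remaining leading genes that fell encode enzymes. GSTT1, a glutathione transferase, had 12.2, 59.2 and 137 CPM at B and 2.54, 5.35 and 16.4 CPM at FR20, a fall of 3.29 (SE 0.31, adjusted p = 2.97e-12). GSTZ1, which works in tyrosine breakdown, went from a median of 370 to 90.7 CPM without overlap of the groups (-1.97, SE 0.19). SARDH, a mitochondrial enzyme of choline breakdown, fell by 2.06 (SE 0.20) and was higher at FR20 in 1 animal. LTC4S, which makes leukotriene C4, fell by 1.90 (SE 0.16, adjusted p = 1.55e-13).

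The higher DEGs with the smallest p included a run of detoxification enzymes. NQO1, a quinone reductase, had 23.2, 40.4 and 123 CPM at B and 77.3, 505 and 1401 CPM at FR20. It rose in 15 of 15 animals by 3.48 (SE 0.38, adjusted p = 1.92e-10), and 14 FR20 libraries lay above the highest Baseline library. CYP2B6, a cytochrome P450 named from the study's tables, had 50.3, 162 and 656 CPM at B and 234, 1976 and 4032 CPM at FR20 (3.39, SE 0.37, adjusted p = 1.84e-10). It was lower at FR20 in 1 animal. UGDH, which makes the UDP-glucuronic acid used in conjugation, had medians of 179 and 1478 CPM (2.61, SE 0.32), and SRXN1, which restores peroxiredoxins, of 54.7 and 372 CPM (2.23, SE 0.27). DHRS4, a short-chain reductase that the study's tables and the gene name table share with the copy DHRS4L2, went from a median of 138 to 1204 CPM (3.17, SE 0.35, adjusted p = 2.17e-10), and in 1 animal it was lower at FR20, at 64.2 CPM.

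Other genes of this group have varied roles. TUBA1B, an alpha tubulin, rose in 15 of 15 animals from 54.1, 76.7 and 166 CPM to 165, 213 and 381 CPM (1.44, SE 0.17, adjusted p = 1.14e-09), and DYNLL1, a dynein light chain, from a median of 21.2 to 77.9 CPM (1.60, SE 0.17). BCAT1, the cytosolic aminotransferase of branched-chain amino acids, had 0, 1.01 and 2.73 CPM at B and 2.52, 4.26 and 21.1 CPM at FR20 (2.57, SE 0.31, adjusted p = 2.12e-09). SEPTIN8, a septin of the cell cortex, rose by 1.11 (SE 0.13), and XPNPEP1, a cytosolic aminopeptidase, by 1.14 (SE 0.12, adjusted p = 5.73e-11). PDZK1IP1, a small membrane protein gene named from the study's tables, rose by 2.58 (SE 0.30) and C9orf16 by 1.25 (SE 0.15).

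**Figure D2:**
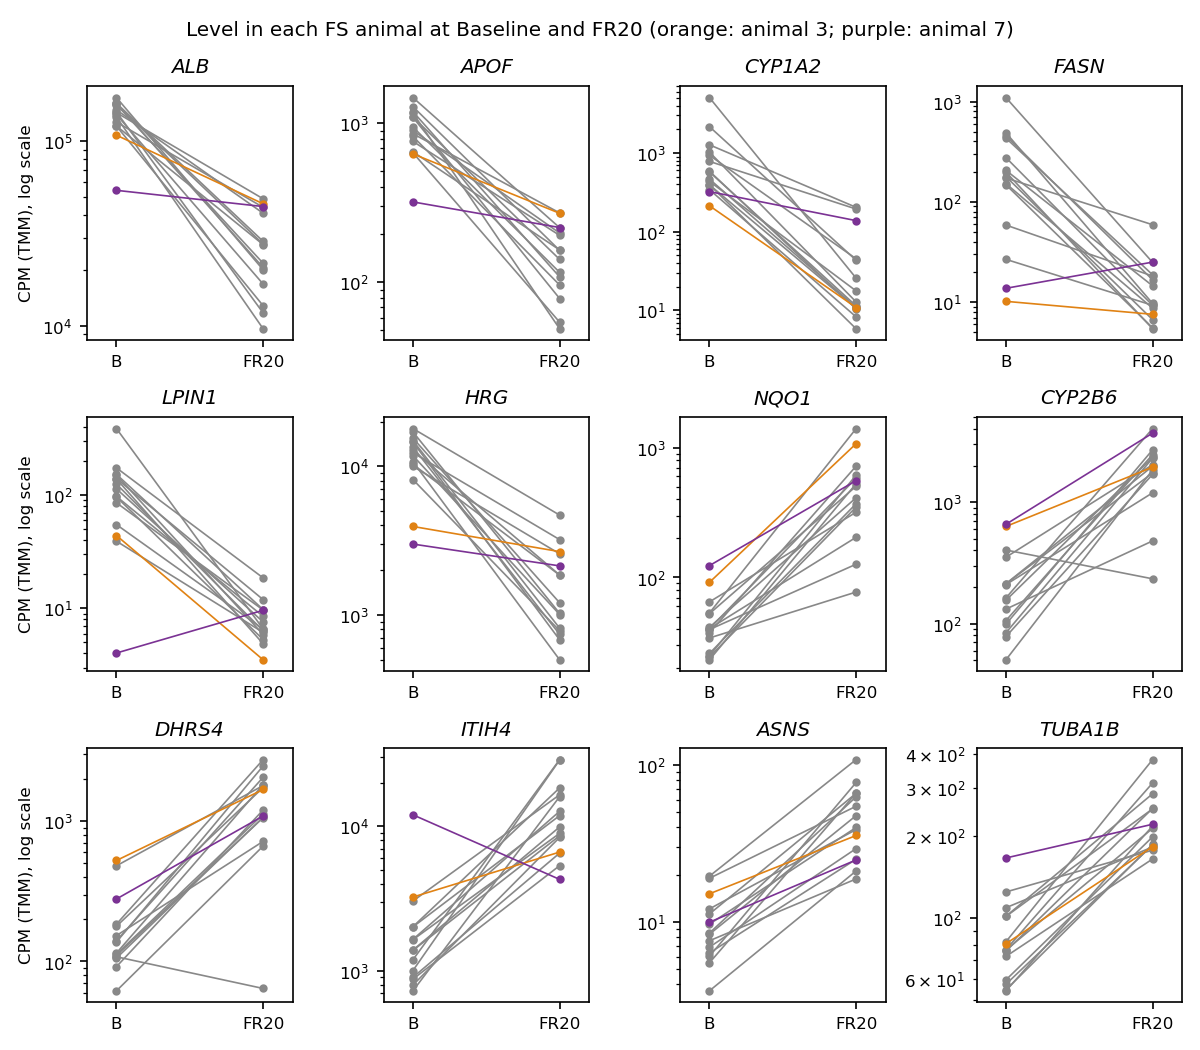
Level of 12 genes in each of 15 FS animals at Baseline and FR20 (CPM on a log axis, 1 line per animal; orange is animal 3 and purple animal 7). ALB, APOF, CYP1A2, FASN, LPIN1 and HRG run downwards and NQO1, CYP2B6, DHRS4, ITIH4, ASNS and TUBA1B upwards in most animals, with animal 7 the exception in LPIN1, FASN and ITIH4.

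Acute phase proteins were considered next. The counts of this list and of the later lists stand beside 11.1% called over all genes, 5.59% higher and 5.55% lower. Of the negative acute phase list, 7 of the 13 tested members other than ALB fell and none rose, with a median log2 fold change of -1.11 against 0.05 over all genes. TTR, the thyroid hormone and retinol transport protein transthyretin, had 1284, 5516 and 8253 CPM at B and 489, 1332 and 2265 CPM at FR20 (-2.06, SE 0.25, adjusted p = 1.85e-09). SERPINA6, which encodes the plasma carrier of glucocorticoids, was the member that fell most, from a median of 480 to 62.8 CPM (-2.63, SE 0.35). AHSG, the calcium-binding fetuin A, fell by 1.44 (SE 0.16), and C8A, a complement subunit, was the mildest called member at -1.11 (SE 0.15). TF, FETUB and ITIH1 were the other members called lower. RBP4, the retinol carrier, had a log2 fold change of -0.75 (SE 0.10, adjusted p = 2.99e-08) and stayed under the 2-fold limit. Without animals 3 and 7, none of the list was called higher. The number called lower grew, but it is held only with ALB counted and so is not given.

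In the positive list 4 of 13 tested members rose, 1 fell and 8 were not called, against 5 and 1 without animals 3 and 7. ITIH4, an inter-alpha-trypsin inhibitor heavy chain known as a major acute phase protein of the pig, had 725, 1388 and 11975 CPM at B and 4280, 9880 and 28874 CPM at FR20 (2.72, SE 0.34, adjusted p = 6.65e-09). The highest Baseline value was that of animal 7, and without animals 3 and 7 the groups of this gene did not overlap. LCN2, an iron-sequestering lipocalin, rose by 2.57 (SE 0.47), CRP, C-reactive protein, by 1.18 (SE 0.21) and LBP, the lipopolysaccharide binding protein, by 1.01 (SE 0.24, adjusted p = 0.000497). LBP sits at the limit and lost the call under 12 of the alternatives. The member that fell was ITIH3. For the fibrinogen chain FGA the study's tables name 2 identifiers. ENSSSCG00000028901, the one reported here as FGA, had -0.02 (SE 0.38), and ENSSSCG00000008998 passes at 1.26 (adjusted p = 3.48e-05). Neither carries the symbol in the gene name table, so neither is counted in the list. FGB likewise has a second identifier, ENSSSCG00000023883, that passes at 2.27 (adjusted p = 1.18e-04) and is not counted in any list. CRP also names a second identifier at -0.15. HP and HAMP were not among the symbols of the table.

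Of 18 tested members of the coagulation and fibrinolysis list 7 fell and none rose (median -0.75), and without animals 3 and 7 there were 8 lower and 2 higher. HRG, histidine-rich glycoprotein, had 2997, 12338 and 17942 CPM at B and 499, 1206 and 4693 CPM at FR20, the largest fall of the list (-2.83, SE 0.29, adjusted p = 4.28e-11). F7, the factor that starts clotting with tissue factor, fell from a median of 149 to 64.8 CPM (-1.10, SE 0.11), and the protease prekallikrein (KLKB1) and heparin cofactor II (SERPIND1) fell with PROC and CPB2. SERPINC1, antithrombin, was called at -1.03 (SE 0.42, adjusted p = 0.0438) and lost the call under 20 alternatives, although it was lower at FR20 in 15 of 15 animals. PLG, plasminogen, had -0.37 (SE 0.10). Of 20 tested complement genes 4 fell and none rose: the mannose-binding lectin MBL2 (-1.64, SE 0.43), from which the lectin pathway starts, and C8A, C8B and C8G, the subunits of component 8. C3 had 0.37 (SE 0.25, adjusted p = 0.235) and C9 0.81 (SE 0.15), both uncalled.

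Genes of lipid synthesis showed lower levels at FR20. Of 19 tested members of the cholesterol synthesis and uptake list 13 fell, none rose and the median was -1.30 (15 lower and none higher without animals 3 and 7). TM7SF2, a sterol reductase, fell most (-2.70, SE 0.27, adjusted p = 1.76e-11), SQLE, squalene epoxidase, fell by 1.62 (SE 0.38), and DHCR7, the last reductase, was the mildest called member (-1.21, SE 0.17). In single animals the list's median change ran from -3.66 to 1.39 and was above 0 in 3 of 15, the highest being animal 7.

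Of 10 tested fatty acid synthesis genes 6 fell and 1 rose (median -1.31), against 7 and 1 without animals 3 and 7. The median change of the list within an animal ran from -3.35 to 0.79. It was above 0 in 4 of 15 animals, the highest being animal 7. FASN, fatty acid synthase, had 10.18, 179 and 1097 CPM at B and 5.41, 9.69 and 59.1 CPM at FR20 (-3.80, SE 0.50, adjusted p = 2.46e-08). SCD, the desaturase, fell by 2.46 (SE 0.39) and ACACA, the carboxylase that makes malonyl-CoA, by 1.74 (SE 0.26). Also lower were the desaturase FADS1, the acetyl-CoA synthetase ACSS2 and MLXIPL, the carbohydrate response factor. GPAM, which starts triglyceride assembly, was the member that rose, from a median of 52.2 to 126 CPM (1.30, SE 0.31, adjusted p = 0.000642).

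Fatty acid oxidation and ketogenesis did not move as a group: 2 of 22 tested members rose, 3 fell, and the median was -0.04. FGF21, a fasting hormone of the liver, had 0.161, 1.21 and 19.5 CPM at B and 4.81, 13.9 and 142 CPM at FR20 (3.97, SE 0.63, adjusted p = 1.23e-06), and the long-chain dehydrogenase ACADVL, a low-count identifier with medians of 0.531 and 7.19 CPM, rose by 2.21 (SE 0.69). PDK4, the kinase that blocks pyruvate dehydrogenase, went from a median of 492 to 117 CPM (-1.75, SE 0.53, adjusted p = 0.00654), and ANGPTL4 and BDH1 fell too. CPT1A, the gate of mitochondrial fatty acid entry, had -0.03 (SE 0.18).

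Of 15 tested genes of gluconeogenesis and glycogen 4 fell and 2 rose (median -0.26). PCK1, the cytosolic enzyme that commits carbon to glucose, had 1437, 3527 and 8183 CPM at B and 403, 1661 and 2799 CPM at FR20 (-1.27, SE 0.37, adjusted p = 0.00515). SLC37A4, the glucose-6-phosphate transporter, fell by 2.10 (SE 0.43) and GYS2, liver glycogen synthase, by 1.62 (SE 0.30). PFKFB1 fell by 3.40 (SE 0.57), with at most 4 counts in any FR20 library. A second identifier with the symbol PFKFB1, ENSSSCG00000012345, had -1.80. Both genes that rose direct phosphatase to glycogen: PPP1R3C from a median of 10.6 to 71.4 CPM (2.19, SE 0.49, adjusted p = 0.000315) and PPP1R3B from 11.2 to 39.2 CPM (1.52, SE 0.41).

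Of 21 tested genes of the urea cycle and amino acid breakdown 9 fell and none rose (median -0.93), and the list's median change was below 0 in 15 of 15 animals, from -2.02 to -0.24. KMO, of the tryptophan pathway, had medians of 402 and 71.5 CPM and fell most (-2.45, SE 0.28, adjusted p = 4.82e-10). OTC, of the urea cycle, fell by 1.62 (SE 0.38). ARG1, arginase, had medians of 638 and 281 CPM (-1.25, SE 0.29), and a second identifier with this symbol had -1.70. TAT, a tyrosine aminotransferase under glucocorticoid control, had 379, 3421 and 7384 CPM at B and 455, 957 and 1883 CPM at FR20 (-1.61, SE 0.41, adjusted p = 0.00126). AASS, of lysine breakdown, fell by 1.09 (SE 0.25). CPS1, the entry enzyme of the urea cycle, had -0.51 (SE 0.21, adjusted p = 0.0523). Without animals 3 and 7 this list had 11 lower and none higher.

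Bile acid genes split: 3 of 12 tested members fell and 3 rose (median -0.13). CYP7A1, the rate-limiting enzyme of bile acid synthesis, had 22.7, 180 and 663 CPM at B and 0.307, 25.6 and 132 CPM at FR20 (-3.04, SE 0.50, adjusted p = 2.78e-06), SLC10A1, which takes bile acids up from blood, fell by 2.57 (SE 0.35) and CYP27A1 by 1.08. NR0B2, the receptor known to repress CYP7A1, rose by 1.69 (SE 0.36) and ABCC2, a canalicular export pump, by 1.97 (SE 0.25) in 15 of 15 animals. SLC51A, a basolateral export subunit, was called higher at 2.31 (SE 0.55) on levels of at most 1.47 CPM at B and 3.22 CPM at FR20. ABCB11, the bile salt export pump, had medians of 119 and 116 CPM (-0.37, SE 0.30).

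Of 11 tested drug metabolism genes 6 fell and none rose (median -1.41), against 7 lower without animals 3 and 7. CYP1A2, an aryl hydrocarbon receptor target, had 213, 575 and 5062 CPM at B and 5.81, 12.8 and 204 CPM at FR20, without overlap and lower in 15 of 15 animals (-4.70, SE 0.50, adjusted p = 1.07e-10). Its neighbour in function CYP1A1 fell by 5.21 (SE 0.80) and was lower in 13 of 15. ADH4 (-3.16), FMO1 (-2.79), CYP2E1 (-1.50, SE 0.19) and FMO5 (-1.41, SE 0.38) were also lower. CYP2B6, which carries no symbol in the gene name table and so was not counted in the list, moved the other way as given above.

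Antioxidant genes rose. Of 10 tested members of the antioxidant and metal response list 7 rose, none fell, and the median was 1.58. Beside NQO1 and SRXN1 these were GCLC, the catalytic subunit for glutathione synthesis (2.24, SE 0.36, medians 150 and 638 CPM), the peroxiredoxin PRDX1 (1.66, SE 0.21), PGD of the pentose phosphate pathway (1.60, SE 0.22), glutathione reductase GSR (1.55, SE 0.25) and thioredoxin reductase TXNRD1 (1.04, SE 0.15, adjusted p = 3.1e-07), which rose in 15 of 15 animals. The list's median change was above 0 in 15 of 15 animals, from 0.06 in animal 15 to 2.08. Symbols for HMOX1 and GCLM were not in the table.

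**Figure D3:**
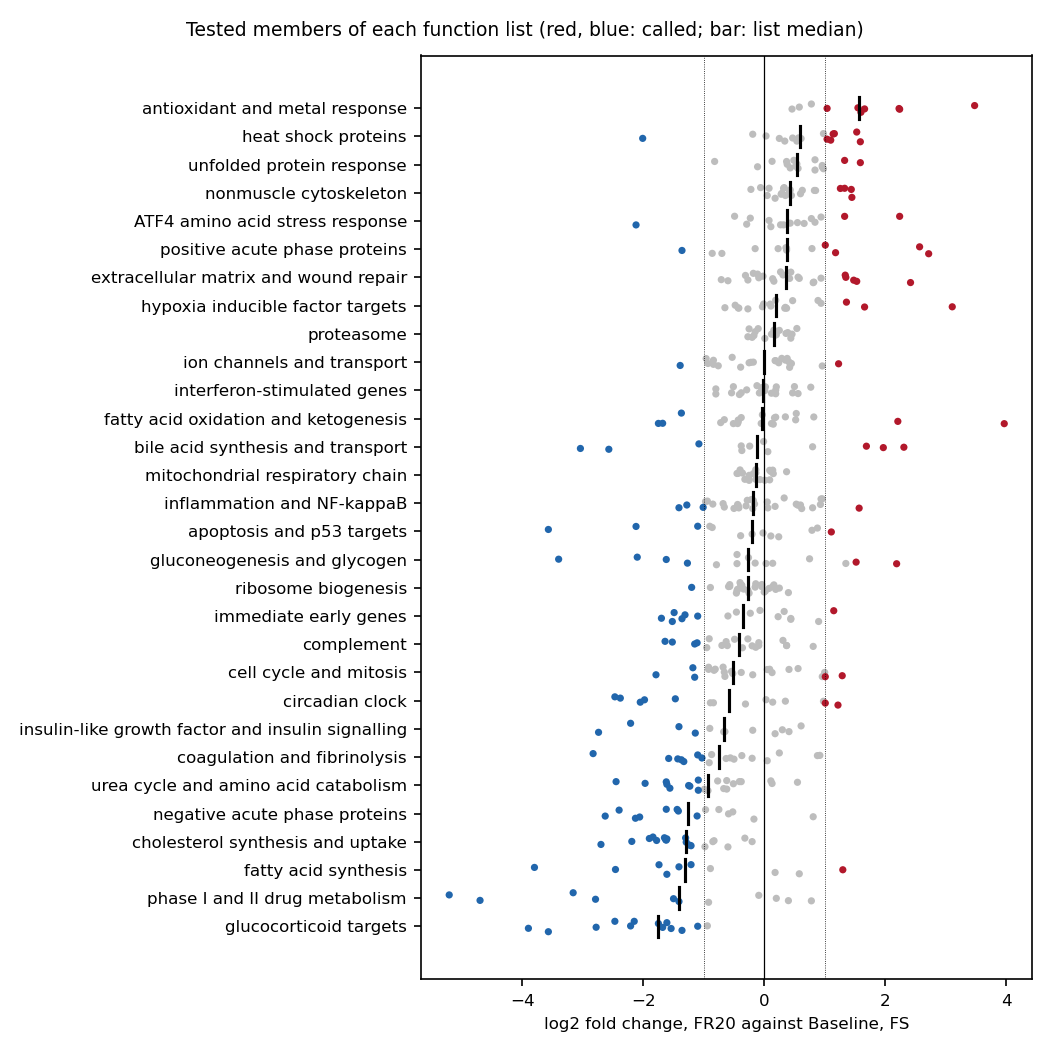
Log2 fold change at FR20 against Baseline for the tested members of 30 function lists, ordered by the list median (black bar); red and blue points are DEGs, grey points are not called and dotted lines mark 2-fold. The antioxidant list has the highest median (1.58) and the glucocorticoid target list the lowest (-1.75), while respiratory chain, proteasome and interferon lists hold no DEG.

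Known glucocorticoid targets were lower at FR20: 12 of 13 tested members fell and none rose (13 lower without animals 3 and 7; median -1.75, and below 0 in 15 of 15 animals, from -2.95 to -0.42 in animal 7). LPIN1, a phosphatidate phosphatase and transcriptional coactivator, had 4.04, 114 and 387 CPM at B and 3.51, 6.57 and 18.6 CPM at FR20 (-3.90, SE 0.45, adjusted p = 6.22e-10), and the lowest Baseline value was that of animal 7. TSC22D3, the glucocorticoid-induced leucine zipper, named from the study's tables and so not counted in the list, fell by 3.39 (SE 0.44, adjusted p = 1.37e-08). The clock gene PER1 went from a median of 148 to 19.1 CPM (-2.47, SE 0.42), GADD45B, a stress-induced gene, from 110 to 8.93 CPM (-3.57, SE 0.44), and FKBP5, a receptor co-chaperone, from 22.2 to 9.94 CPM (-1.10, SE 0.28, adjusted p = 0.00138). NFKBIA, the inhibitor of NF-kappaB, had -0.94 (SE 0.16).

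In the insulin-like growth factor list 4 of 12 tested members fell and none rose (median -0.66). IGFALS, the subunit that holds IGF1 in plasma, had 8.01, 50.1 and 68.9 CPM at B and 3.18, 6.52 and 16.1 CPM at FR20 (-2.74, SE 0.31, adjusted p = 5.02e-10). IGFBP1, a binding protein that insulin represses, fell by 2.21 (SE 0.39), and the transcription factors FOXO1 and FOXO3 fell by 1.41 and 1.14. IGF1 itself had -0.90 (SE 0.27, adjusted p = 0.00555).

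Circadian genes showed both directions, with 5 of 14 tested members lower and 2 higher (median -0.57), or 5 lower and 1 higher without animals 3 and 7. PER2, a repressor of the clock, had 1.43, 45.8 and 65.4 CPM at B and 2.96, 7.50 and 13.3 CPM at FR20 (-2.38, SE 0.33, adjusted p = 5.16e-08). CRY1 (-2.05) and BMAL1, the activator (-1.47, SE 0.41, adjusted p = 0.00354), were also lower. DBP, an output gene of the clock, had 0.391, 4.05 and 14.99 CPM at B and 0.780, 10.4 and 19.1 CPM at FR20 (1.22, SE 0.42, adjusted p = 0.0173), and BHLHE41 was called at 1.01. NR1D1, named from the study's tables, rose by 1.43 (SE 0.45, adjusted p = 0.00895).

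Of 16 tested heat shock genes 6 rose and 1 fell (median 0.59), and without animals 3 and 7 there were 7 higher and 1 lower. HSPA8, the constitutive HSP70, went from a median of 23.2 to 95.9 CPM (1.59, SE 0.42, adjusted p = 0.00177), CHORDC1 rose by 1.53, and DNAJA1, STIP1, HSPH1 (1.10, SE 0.39) and DNAJB1 rose by between 1.04 and 1.16, while the co-chaperone BAG3 fell by 2.01 (SE 0.29). Of 17 unfolded protein response genes 2 rose and none fell (median 0.54), beside 11.1% called over all genes. The 2 were CREB3L3, a liver factor cleaved under endoplasmic reticulum stress (1.59, SE 0.21, adjusted p = 2.69e-08), and CRELD2 (1.33, SE 0.52, adjusted p = 0.0359). CRELD2 lost the call under 12 alternatives. DNAJB9 (-0.82) and XBP1 (-0.11) lay below 0 and were not called, and the other tested members lay above 0. HSPA5 had 308, 569 and 7574 CPM at B and 570, 1334 and 3716 CPM at FR20 (0.96, SE 0.37, adjusted p = 0.032). Without animals 3 and 7 the count of this list was 7 higher and none lower, and HSPA5 was called at 1.61 (adjusted p = 1.81e-06).

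In the amino acid stress list 2 of 16 tested members rose and 1 fell, beside 11.1% called over all genes. ASNS, asparagine synthetase, had 3.64, 8.49 and 19.6 CPM at B and 18.8, 40.0 and 108 CPM at FR20 and rose in 15 of 15 animals (2.24, SE 0.37, adjusted p = 2.14e-06). The folate enzyme MTHFD2 rose by 1.33, SESN2, a stress sensor, fell by 2.12 (SE 0.30), and TRIB3, named from the study's tables, rose by 1.71 (SE 0.36). Among immediate early genes 6 of 16 fell and 1, EGR1 (1.15, SE 0.39, adjusted p = 0.0145), rose. FOS had -0.60 (SE 0.57) and ATF3 -0.23 (SE 0.49). The lowest was NR4A3 (-1.70, SE 0.49).

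Of 31 tested members of the inflammation list 1 rose and 3 fell (median -0.19), beside 11.1% called over all genes, and without animals 3 and 7 there were 3 higher and 6 lower. The decoy receptor IL1R2 rose by 1.57 (SE 0.33) on low levels (medians 0.587 and 1.23 CPM), and the chemokine CXCL2 (-1.41, SE 0.47, adjusted p = 0.013), IL6R and SOCS1 fell. TLR2 had 0.18 (SE 0.30) and ICAM1 0.05 (SE 0.13). None of 22 interferon-stimulated genes was called (MX1 0.47, SE 0.30).

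Of 24 tested genes of extracellular matrix and wound repair 5 rose and none fell (median 0.36). TIMP1, a metalloproteinase inhibitor, had 5.22, 11.5 and 131 CPM at B and 24.1, 81.8 and 257 CPM at FR20 (2.42, SE 0.51, adjusted p = 0.00014), osteopontin (SPP1) rose by 1.53 (SE 0.48), versican (VCAN) by 1.48, tenascin C (TNC) by 1.35 and the cross-linking enzyme LOX by 1.34 (SE 0.26). THBS1 had -0.71 (SE 0.24), and a second identifier with the symbol TNC had 0.90, under the 2-fold limit. Of 21 cytoskeleton genes 4 rose and none fell: KRT18 (1.45, SE 0.32, adjusted p = 0.000285) and its partner KRT8 (1.33), the keratins of hepatocytes, with the tubulins TUBA1B and TUBB (1.26, SE 0.17). ACTB, beta actin, had -0.06 (SE 0.16). The tubulin TUBB6, named from the study's tables and so not counted in the list, had 0.08 (SE 0.20). Tubulin genes are near-identical copies whose reads the counting may split.

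The members called in the next lists also stand beside 11.1% called over all genes. EGLN3, PFKFB3 (1.36, SE 0.40) and EPO, erythropoietin, rose among 19 hypoxia inducible factor targets. EPO was called at 3.11 (SE 0.82, adjusted p = 0.00179) with a median of 0 CPM at B, and at 5.79 without animals 3 and 7. VEGFA had 0.10 (SE 0.11). MDM2, a p53 target, rose by 1.11 (SE 0.17) in 15 of 15 animals, while GADD45B, SESN2 and BBC3 fell among 13 p53 and apoptosis genes. Of 23 cell cycle genes MCM2 (1.29, SE 0.25), a subunit of the replication helicase, and CDC6 rose, and CCNE2 (-1.79, SE 0.38), BUB1B and CENPF fell. A second identifier with the symbol BUB1B had -0.77 and was not called, and CCNB1 had -0.92 (SE 0.34). Of 26 ribosome biogenesis genes 1 fell, GNL3 (-1.20, SE 0.22), with NOP56 at -0.57 (SE 0.18) and MYC at -0.46 (SE 0.19). SLC13A5, a citrate carrier, rose (1.23, SE 0.25) and SLC17A1, a phosphate and urate carrier, fell (-1.39, SE 0.22) among 22 transport genes. Respiratory chain (20 tested, median -0.14, NDUFS1 0.14) and proteasome genes (17 tested, median 0.16, PSMA1 0.36, PSMD11 0.39) held no DEG. Without animals 3 and 7 the counts were 4 higher and none lower for the hypoxia list, 1 and 4 for the p53 list, 3 and 3 for the cell cycle list and 2 and 3 for the transport list.

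**Figure D4:**
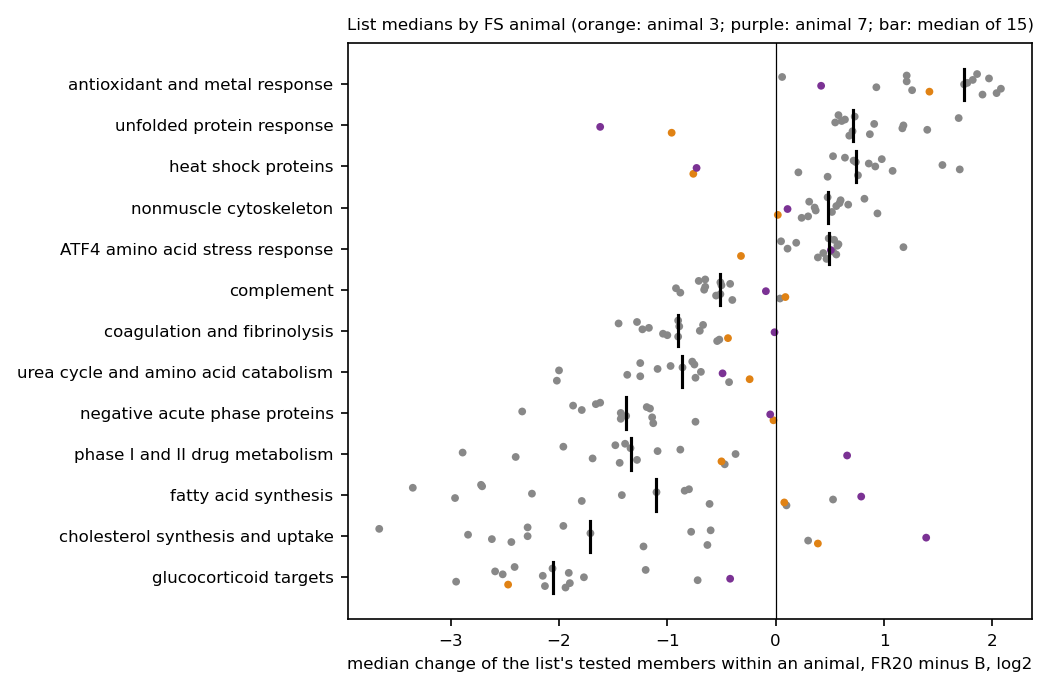
Median change (FR20 minus B, log2) of the tested members of 13 lists within each of 15 FS animals; orange is animal 3, purple animal 7 and the black bar the median of the animals. All 15 animals lie below 0 for the glucocorticoid target, urea cycle and coagulation lists. The negative acute phase list is drawn with ALB, on which the animals were selected, so no count of animals is read from it. Animals 3 and 7 lie at -0.02 and -0.05 in that list. All 15 lie above 0 for the antioxidant and cytoskeleton lists. Animals 3 and 7 lie apart from the others in the unfolded protein response and heat shock lists.

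Markers of the cell types that a biopsy could hold were compared as whole lists. Hepatocyte markers other than ALB fell in 7 of 12 cases (median -1.04). Without animals 3 and 7 the count of this list became smaller, but it is held only with ALB counted and so is not given. Neither endothelial (10 tested, PECAM1 0.14, ENG 0.19), stellate and smooth muscle (10 tested, ACTA2 -0.04, COL3A1 0.16), neutrophil (5 tested, S100A8 1.25 with adjusted p = 0.122, AQP9 -0.39) nor mesothelial markers (2 tested, PDPN 0.66) held a called member, but without animals 3 and 7 each of these lists had 1 member called higher. S100A12, a neutrophil alarmin named from the study's tables, rose by 1.54 (SE 0.52, adjusted p = 0.0152). The macrophage receptor MARCO fell by 1.40 (SE 0.21), with C1QA at -0.63, CD68 at 0.48 and MRC1 at 0.17; IL2RB (-1.14, SE 0.13) and GZMK fell among 11 T and NK cell markers (5 without animals 3 and 7), with CCL5 at -0.79 and NKG7 at 0.26; 2 of 5 B cell markers fell, CD79B (-1.17, SE 0.32) among them, with XBP1 at -0.11. The red cell transcripts HBB (-1.65, SE 0.47) and ALAS2 (-1.38, SE 0.41) fell. Bile duct markers rose in 2 of 7 cases, CLDN4 (2.08, SE 0.33) and SPP1, with EPCAM at -0.06 (SE 0.21).

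On the scale of each library's own total, the summed striated muscle markers ran from 13.3 to 71.7 CPM at B and from 10.6 to 118.5 CPM at FR20, with medians of 18.7 and 18.8. By TMM 1 of 10 tested members of this list was called lower, against 2 of 9 without animals 3 and 7. NEB, called at -1.35 (adjusted p = 0.0488), lost the call under 23 alternatives, and ACTA1 (-0.76) and DES (-0.43) were not called. On the own totals, endothelial sums ran from 273 to 654 CPM and from 405 to 889 CPM, and stellate cell sums from 500 to 1352 and from 583 to 2310 CPM, each higher at FR20 in 14 of 15 animals. Bile duct sums ran from 81.3 to 396 CPM at B and from 215 to 1069 CPM at FR20, higher in 14 of 15 animals, and red cell sums from 83.5 to 850 and from 56.4 to 522.5 CPM, higher in 2. Macrophage sums were 347 to 627.5 and 372 to 633 CPM, higher at FR20 in 11 of 15 animals, and neutrophil sums 346 to 893.5 and 422 to 836 CPM, higher in 8. T and NK cell sums were 61.3 to 183 and 46.5 to 165 CPM, higher in 5, and B cell sums 114 to 353 and 155.5 to 485.5 CPM, higher in 12. Of the markers in the table, MYH11, CLEC4F, CSF3R, MMP8 and CALB2 were at 0 in every library of both timepoints. These sums are not on the TMM scale of the fold changes. Median ALB was 120756 CPM of the own total and 143033 CPM by TMM at B, but 30642.5 and 27524 CPM at FR20. On these medians own totals place FR20 higher against B than TMM does. By TMM the median log2 fold changes were 0.16 for endothelial, 0.06 for stellate, -0.06 for bile duct and -0.33 for macrophage markers. They were 0.92 for neutrophil, -0.82 for T and NK cell, -0.94 for B cell and -1.38 for red cell markers. The part of these cell types in the changes above was not tested.

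The last interval of the study was examined with FR20 against FR8 in the same 15 animals, where 677 genes were DEGs (5%), 528 higher (3.9%) and 149 lower (1.1%). FR8 against B gave 835 higher (6.17%) and 1297 lower DEGs (9.59%), and FR2 against B 724 (5.35%) and 952 (7.04%). By the adjusted p alone the split was 1575 higher and 1592 lower at FR20 against FR8, that is 49.7% higher in place of 78%, 3357 and 3122 at FR8 against B, 2827 and 3281 at FR2 against B, and 2864 and 2536 at FR20 against B. These comparisons share libraries with FR20 against B. Some of the FR2 and FR8 libraries stood apart as well, lying outside the range of the other 14 in 34.6% (animal 7) and 33.9% (animal 8) of genes at FR2, against at most 16.6% for the rest, and in 26.9% (animal 6), 26.1% (animal 7) and 19.4% (animal 8) at FR8, against at most 17.1%. The FR2 and FR8 libraries of animal 8 held 11882 and 12092 identifiers with a count, the fewest of the FS libraries at these timepoints, and list ASNS and TIMP1 at 0. Without animal 6 there were 895 DEGs at FR20 against FR8 (669 higher and 226 lower). There were 680 without animal 7 (534 and 146) and 647 without animal 8 (518 and 129). In animal 6, DBP stood at 7.76 CPM at FR8 against 0.0910 to 1.62 CPM in the other 14. At FR20 it stood at 0.780 CPM against 2.82 to 19.1 CPM. DHRS4 of animal 6 stood at 1479 CPM at FR8 against 85.4 to 788 CPM, and at 64.2 CPM at FR20 against 666 to 2753 CPM. These libraries kept their labels. The genes with the smallest p that were higher at FR20 than at FR8 included the clock repressors CRY2 and NR1D2. NR1D2 had 14.9, 88.7 and 173 CPM at B, 5.70, 10.5 and 96.5 CPM at FR8 and 27.2, 101 and 148 CPM at FR20 (FR20 against FR8 2.74, SE 0.34, adjusted p = 9.83e-08; FR20 against B 0.14). CRY2 differed by 2.60 (SE 0.32), TSHZ2, a zinc finger factor, by 2.00 (SE 0.23) and the peptidase CPQ by 1.26 (SE 0.17), and none of these 4 was called at FR20 against B. Their medians at FR8 were below those at B and at FR20.

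Of the genes lower at FR20 than at FR8, the median of CYP1A2 stood at 575 CPM at B, 84.0 CPM at FR8 and 12.8 CPM at FR20. PPIF, the mitochondrial cyclophilin, had medians of 179 CPM at B, 555 CPM at FR8 and 170 CPM at FR20 (FR20 against FR8 -1.42, SE 0.20, adjusted p = 1.62e-06). SLC66A2, which the study's tables call PQLC1, went through 62.2, 318 and 53.2 CPM (-2.11, SE 0.30), and the monocarboxylate carrier family member SLC16A13 through 5.94, 17.1 and 5.13 CPM (-1.66, SE 0.22). SLC6A12, a betaine carrier, differed by -1.24 (SE 0.18) and stood at -0.84 at FR20 against B.

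**Figure D5:**
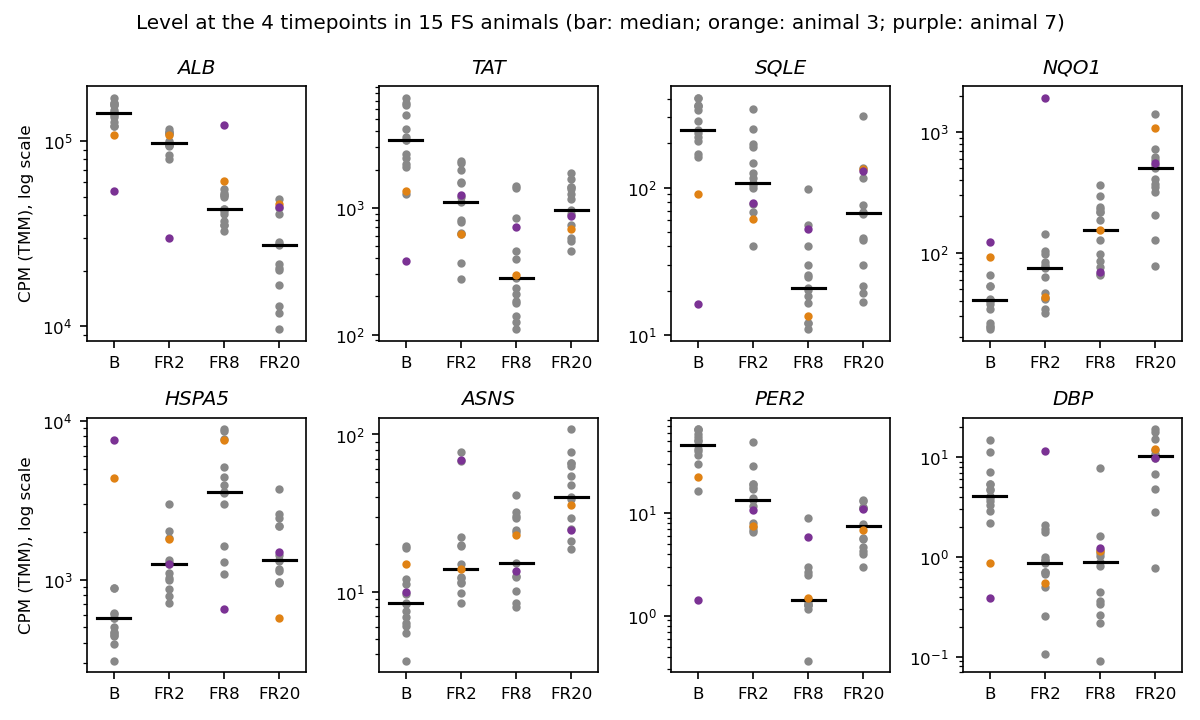
Level of 8 genes at the 4 timepoints in 15 FS animals (CPM on a log axis; each point is 1 library, the bar the median, orange animal 3 and purple animal 7). Median ALB stood at 143033 CPM at B and 27524 CPM at FR20, median HSPA5 was highest at FR8 (3587 CPM), PER2 lowest at FR8 (1.44 CPM), and NQO1, ASNS and DBP highest at FR20. The ASNS values of animal 8 at FR2 and FR8 are 0 and cannot be drawn on the log axis.

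By list, the cholesterol genes had a median log2 fold change of -0.83 at FR2, -2.30 at FR8 and -1.30 at FR20 against B, and 7 of 19 were called higher at FR20 than at FR8, SQLE among them (1.55, SE 0.38, adjusted p = 0.00198). Unfolded protein response genes had 0.09, 1.34 and 0.54, with 7 of 17 called lower at FR20 than at FR8 (HSPA5 -1.40, SE 0.36). Antioxidant genes had 0.45, 0.88 and 1.58, and NQO1 was again higher at FR20 than at FR8 (1.52, SE 0.36). Glucocorticoid targets had -0.25, -2.30 and -1.75. The 13 negative acute phase genes other than ALB had -0.46, -1.15 and -1.11, with none called between FR8 and FR20.

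Whether fasted pigs changed differently from CPF pigs was asked with the interaction, the FR20 against B change of 5 CPF animals minus that of 15 FS animals. No gene passed (0 of 13531) in edgeR's quasi-likelihood test, 606 (4.48%) had an unadjusted p under 0.05, and DESeq2 and edgeR's likelihood ratio test called 0. Limma with library quality weights called 1, an identifier with no symbol. The genes with the smallest p were CHKA, choline kinase, and CCDC149. CHKA had 9.86, 20.8 and 37.6 CPM at B and 12.6, 18.7 and 46.6 CPM at FR20 in FS animals, and 36.7, 44.1 and 117 CPM and 9.96, 15.1 and 17.1 CPM in CPF animals, a difference of the changes of -1.74 (SE 0.40, adjusted p = 0.33). It was lower at FR20 in 5 of 5 CPF animals and in 8 of 15 FS animals. CCDC149 had a difference of -0.84 (SE 0.20, adjusted p = 0.33). The FR20 library of CPF animal 4 held 168246 CPM of albumin on its own total, above the 139731 CPM of its Baseline library. The other CPF libraries at FR20 held 19154 to 35666 CPM. This library kept its label, and without CPF animal 4 the interaction also called 0. A p that misses the threshold with 5 animals in an arm does not show that the groups changed alike.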

How the data were processed

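Messenger RNA of liver biopsies was sequenced as single reads. Per the labels and the study's methods, the authors aligned the reads to the pig genome Sscrofa10.2 with TopHat 1.5.0 and counted reads per Ensembl gene with HTSeq, and the deposited values are raw counts for 25322 identifiers. The counting mode and strand setting are not given in the sources used here, so near-identical and overlapping genes are uncertain. Every column matched a sample (0 did not). Symbols came from a gene name table for 11804 identifiers and from the study's tables for 699 more.

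The counts of 79 libraries (15 FS and 5 CPF animals at 4 timepoints, less 1 CPF library of 4388 counts that the study omitted) were fitted together with edgeR 4.0.16 in R 4.3.3: TMM scaling, genes with a summed CPM of at least 10, a term for each animal and separate time terms for FS and CPF, quasi-likelihood F test, 2-sided, Benjamini-Hochberg adjustment over 13531 genes. Calls needed an adjusted p below 0.05 together with a 2-fold difference either way. Within-animal changes used a prior count of 2. The number of animals limits the precision, and totals ran from 6877117 to 16613261 counts in the 30 libraries compared. The script was tested on simulated counts.

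Same-numbered libraries come from 1 animal. The residuals of B and FR20 of an animal had a median correlation of 0.186 (over 0.1 in 12 of 15 pairs), against -0.0272 for different animals (39 of 210 pairs). No 2 libraries of a group agreed within sampling noise.

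Genes were named by rule: the 12 risen and 12 fallen with the smallest p among called genes with a symbol that moved 1 way in at least 13 animals; of each of 41 lists (30 functions, 11 cell types), fixed anchors, the called members with the highest and lowest change and, for cell types, the most abundant; 4 genes per direction for FR20 against FR8; and 2 for the interaction. Other called members were named after their values were seen. The members and lists were chosen with earlier results of these data known. Alternatives were RLE scaling, other filters, DESeq2 1.42.0, a likelihood ratio test, limma 3.58.1, other library sets, no animal term and leaving out each animal. Plots were drawn with matplotlib 3.10.9. Some members of the lists are counted but not reported here by name.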

Additional observations from a re-analysis of the deposited data

Results flagged for a closer look

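At Baseline, 1 of the 5 CPF animals stood far above the others for CHKA, at 117 CPM in CPF animal 4, which bears on the interaction value of this gene. Such a gap is passed by about 1 in 20 groups by chance.

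Several genes reported for FR20 against B also differed between FR20 and FR8 in the same 15 animals by edgeR's quasi-likelihood test, so their change against B was not the same at both times. Among clock genes, FR20 minus FR8 was 3.44 for DBP, 3.01 for NR1D1, 2.74 for NR1D2, 2.60 for CRY2, 1.92 for PER2, 1.11 for PER1 and -2.61 for BMAL1 on the log2 scale. Metabolic and transport genes had 1.52 for NQO1, 1.55 for SQLE, 1.36 for TAT, 1.61 for ABCB11, 1.06 for SLC10A1, 1.40 for ASNS and -2.05 for CYP1A2. Of the other genes, HSPA5 had -1.40, DNAJB9 -1.01, the FGA identifier ENSSSCG00000028901 -1.57, TLR2 -1.28, S100A8 -1.60 and S100A12 -1.28. The genes named for this interval had 2.00 for TSHZ2, 1.26 for CPQ, -1.66 for SLC16A13, -2.11 for SLC66A2, -1.24 for SLC6A12 and -1.42 for PPIF.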

How the results depend on the processing

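Under RLE scaling, DESeq2 and limma the DEGs at FR20 against B numbered 1505, 1569 and 1597, of which 1496, 1487 and 1356 were among the 1508. By adjusted p alone 5400 genes passed at FR20 against B, 3167 at FR20 against FR8, 6479 at FR8 against B and 6108 at FR2 against B. With all 91 libraries, which hold the 3 left-out animals, FR20 against B gave 1149 DEGs (444 higher and 705 lower, 38.6% higher, 721 shared) and FR20 against FR8 gave 126. With B and FR20 of all 18 FS animals alone, chosen after seeing the data, 691 genes were called (369 higher and 322 lower), 506 of them among the 1508. Limma called 1 gene in the interaction. Without animals 3 and 7, also chosen after seeing the data, there were 1947 DEGs, 1452 of them shared.

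Without the replicate block for the animal, FR20 against B gave 1402 DEGs (640 higher and 762 lower), FR20 against FR8 573, FR8 against B 1999, FR2 against B 1602 and the interaction 0; the pairing changed the direction of CRELD2 (-0.24), ATF3 (0.17), ACTA1 (0.25) and EPCAM (0.04).

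Leaving out 1 animal gave 1388 (without FS animal 5) to 1746 (without FS animal 7) DEGs at FR20 against B, 574 to 895 at FR20 against FR8, 1985 to 2550 at FR8 against B, 1547 to 2057 at FR2 against B, and 0 in the interaction. Of 114 called genes among 159 named, 66 lost the call under some alternative and 12 when a single animal was left out.

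Directions near 0 turned as follows, and the cause was not tested. Limma gave CPT1A 0.01, ATF3 0.18, ACTA1 0.63 and ACTA2 0.13. B and FR20 of the 15 animals alone gave CPT1A 0.00 and ATF3 0.02. All 91 libraries gave FGA 0.61, CPT1A 0.27, CPS1 0.02, ACTB 0.26, TUBB6 -0.39, PSMD11 -0.25, AQP9 0.01, XBP1 0.31, PECAM1 -0.26, ACTA2 0.09, COL3A1 -0.05, EPCAM 0.46 and PDPN -2.25. All 18 FS animals gave FGA 0.58, CPT1A 0.45, CPS1 0.03, ABCB11 0.22, PLG 0.19, ACTB 0.19, TUBB6 -0.23, PSMD11 -0.01, AQP9 0.16, XBP1 0.22, PECAM1 -0.21, ACTA2 0.12, COL3A1 -0.13, EPCAM 0.46 and PDPN -1.03. Without the animals that died EPCAM was 0.05, and without animals 3 and 7 FGA was 0.32. With 1 animal left out the ranges were -1.32 to 0.39 for ACTA1, -0.20 to 0.03 for EPCAM, -0.01 to 0.11 for ICAM1, -0.21 to 0.20 for FGA, -0.40 to 0.09 for ATF3, -0.15 to 0.04 for ACTA2 and -0.09 to 0.06 for CPT1A. CRELD2 was the only called gene that turned.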

Other observations

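The 3 FS animals that were left out went against their labels at more than 1 timepoint. Their FR20 libraries held 64854 to 93740 CPM of albumin on the scale of the library total, against 13202 to 58723 CPM in the 15 kept animals. Of the 24 genes with the smallest p at FR20 against B, the FR20 values of FS animals 13, 14 and 16 lay within the FR20 range of the 15 for 4, 5 and 2 genes and within their Baseline range for 22, 20 and 23. Their FR8 libraries lay within the Baseline range for 21, 22 and 24 of these genes and within the FR20 range for 2, 2 and 1. Since these genes were chosen in the 15 animals, the counts are a description, and the samples kept the groups that the labels give them.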
